A study of Homo sapiens with 18 samples.

Results

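The response of shNR4A3 cells to lipopolysaccharide (LPS) was taken from 6 of the 18 libraries of the series, the 3 titled as shNR4A3 cells with LPS and the 3 titled as unstimulated shNR4A3 cells, and every gene in the deposited tables entered the comparison. The cells were THP-1, a human monocytic leukaemia line, transduced by lentivirus with a short hairpin RNA against NR4A3, and LPS was given at 2.5 µg/ml for 2 h, after 2 h of equilibration in fresh medium that both groups received. The series holds 2 further lines, one with a non-target hairpin (shNT) and one with a hairpin against NR4A2 (shNR4A2), each with and without the same LPS in 3 libraries per group. Both groups compared here carried the NR4A3 hairpin, so the comparison measures LPS within a knockdown line, and each hairpin is represented by a single stable line. The study describes its replicates as independent experiments.

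LPS, the outer membrane glycolipid of Gram-negative bacteria, is sensed by CD14, MD-2 (encoded by LY96) and TLR4, which signal through the adaptors MyD88 and TRIF to NF-κB, the MAP kinases and interferon regulatory factors. Within hours monocytes transcribe immediate early genes first, then chemokines, cytokines and the inhibitors that close the response down. NR4A1, NR4A2 and NR4A3 are orphan nuclear receptors that are themselves immediate early genes of this response in myeloid cells.

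Counts on genes were 17694355, 16566072 and 18039169 in the control libraries and 19151880, 16171161 and 21004337 with LPS. Levels are given as TPM (counts divided by exonic length and scaled so that every library has the same sum), and fold changes come from edgeR on the counts. Calling a gene needed a change of 2-fold or more with an adjusted p below 0.05, and "rose" and "fell" are used for called genes alone. On the first principal component, which held 96.4% of the variance of the 500 most variable genes, the controls lay at -42.9, -44.0 and -43.9 and the LPS libraries at 49.7, 35.1 and 46.1. LPS replicate 2 thus stood closest to the controls, and it had the weakest response of the LPS libraries for 671 of the 946 genes called higher (70.9%) and for 361 of the 628 called lower (57.5%). Without it 1052 genes were called higher and 749 lower. Control replicate 2 had fewer genes with a count (23149, against 28805 and 26312) and a smaller share of mitochondrial counts (1.05%, against 2.12% and 2.04%), and without it 967 genes were called higher and 616 lower.

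The targeted gene was induced from a very low level. NR4A3 (ENSG00000119508, chr9:99821855-99866891, GRCh38 as in the deposited tables) had 0.158, 0.107 and 0.0315 TPM in the control libraries, which rests on 5, 3 and 1 counts, and 17.0, 18.2 and 16.7 TPM with LPS (582, 516 and 628 counts). The groups did not overlap, and the log2 fold change was 7.62 ± 0.24 (SE, n = 3 against 3; adjusted p = 3.06e-09, edgeR). NR4A2 (chr2:156324432-156342348) went from 2.51, 2.97 and 3.31 TPM to 41.8, 60.7 and 38.3 TPM, a log2 fold change of 4.22 ± 0.18, and was the most abundant of the family with LPS. NR4A1 (chr12:52022832-52059507) went from 4.02, 8.37 and 5.10 TPM to 17.6, 20.03 and 16.9 TPM, a log2 fold change of 1.88 ± 0.19, and its control replicate 2 was above the other controls. For each of the 3 genes the exact two-sided permutation test of TPM gave p = 0.1, the smallest that 3 libraries against 3 allow. The line against which the hairpin is judged, shNT, had 0.587 ± 0.0940 TPM of NR4A3 without LPS and 31.7 ± 0.708 TPM with it (SD, n = 3 each), against 0.0990 ± 0.0636 and 17.3 ± 0.807 TPM in shNR4A3 cells. The level of NR4A3 was therefore lower in the knockdown line in both states. The log2 difference between the LPS responses of the lines was 1.65 ± 0.38, the larger in shNR4A3 cells, and did not pass the test (adjusted p = 0.541, interaction in edgeR).

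**Figure D1:**
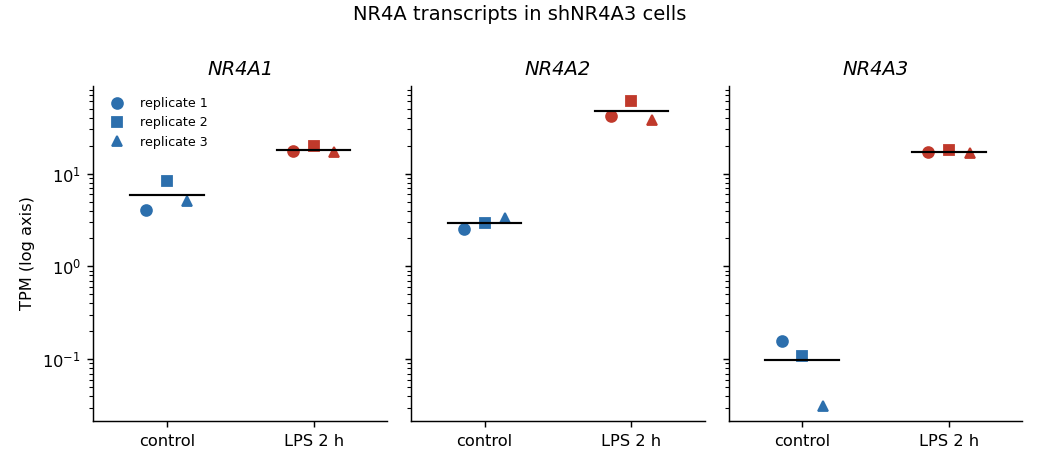
TPM of NR4A1, NR4A2 and NR4A3 in each of the 3 control and 3 LPS libraries of shNR4A3 cells, on a log axis, with symbols for the replicate and bars for the mean. All 3 genes are separated by LPS, and NR4A3 moves from at most 0.158 TPM to about the level of NR4A1 with LPS.

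Of 15342 genes tested, 10.3% were called, 6.17% higher and 4.09% lower, and the 2 directions differed in size and in starting level. These shares are the background for the counts of list members given below. Genes called higher rose by a median of 4.55-fold, 532 of them by at least 4-fold and 195 by at least 16-fold as fitted. Genes called lower fell by a median of 2.49-fold, 79 of them by at least 4-fold, and 2 (FFAR4 and CASS4) by at least 16-fold. Genes that rose were often near silence before LPS: 324 had a control mean under 1 TPM, against 23 of those that fell, and 15 had no count in any control library. For these 15 the fold change is a lower bound against a floor of 3 counts over the 3 controls, and with them at that bound 195 genes rose at least 16-fold and 73 at least 64-fold. Together the genes that rose took 1.65%, 1.69% and 1.66% of all TPM in the controls and 10.97%, 8.03% and 9.63% with LPS, the least in LPS replicate 2. As TPM sums to the same total in each library, the median gene tested had a TPM ratio of -0.24 on the log2 scale while its edgeR log2 fold change was -0.01, and on the TPM scale genes that did not respond were on the whole a little lower with LPS. TPM did not overlap between the groups for 1555 of the 1574 called genes, and for 51.6% of all genes tested (10.5% with LPS higher and 41.1% with LPS lower). Without the fold limit, 28.1% of genes passed the adjusted p, 13.1% higher and 15% lower. By annotation, 659 of the genes called higher and 525 of those called lower were protein coding, and 201 and 78 were long noncoding RNAs.

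**Figure D2:**
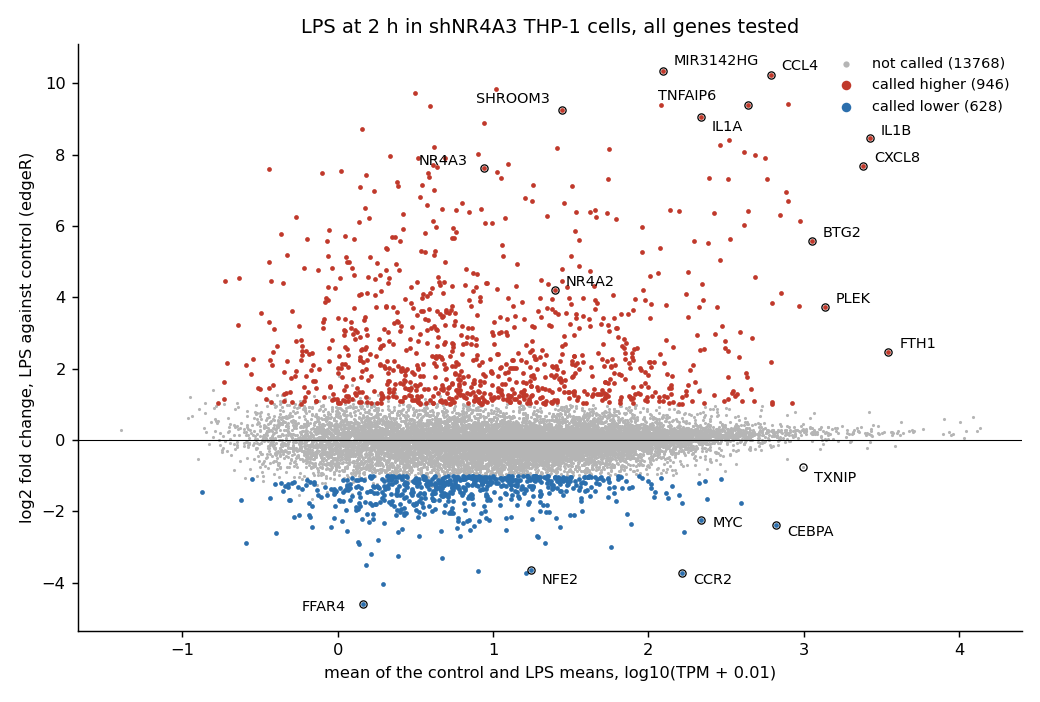
Each point is 1 of the 15342 genes tested, with its level (mean of the control and LPS mean TPM, log10) on the x axis and its log2 fold change with LPS in shNR4A3 cells on the y axis. Called genes reach 10.35 upwards (MIR3142HG) and -4.60 downwards (FFAR4), and the circled genes are named in the text.

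The label of the cells was checked against marker genes. All 14 monocyte and myeloid markers were detected, led by the neutrophil elastase gene ELANE at 4286 TPM, with LYZ, the lysozyme gene, at 883 TPM without LPS and CD14 at 39.9 TPM. None of them was called, and their median log2 fold change was -0.01. The summed level was 6335, 6944 and 6195 TPM in the controls and 5921, 6562 and 6487 TPM with LPS. Of 20 markers of other blood and tissue cells, 8 passed the filter on low counts and none was called. Those 8 included PECAM1 at 205 TPM and CD4 at 177 TPM, which myeloid cells also carry, while CD3D, CD3E, CD8A, MS4A1, HBB and EPCAM had 3, 9, 10, 0, 0 and 8 counts over the 3 controls. These are bulk libraries, in which fewer responding cells and less RNA per cell cannot be told apart.

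Chemokines of the CXC class, which recruit neutrophils and activated lymphocytes, rose together: 8 of the 9 members tested were called higher and none lower, with a median log2 fold change of 7.68, against -0.01 over all genes tested. The group's summed level went from 41.9, 42.0 and 33.8 TPM to 9009, 5674 and 6761 TPM. CXCL8 (interleukin 8, the main neutrophil attractant) had the highest level, at 27.7, 30.5 and 24.5 TPM without LPS and 6281, 4012 and 4115 TPM with it, a log2 fold change of 7.68 ± 0.24. CXCL3 had the largest change in the class, from 0.539, 0.204 and 0.449 TPM to 304, 167 and 245 TPM, a log2 fold change of 9.40 ± 0.37 (adjusted p = 1.57e-08, edgeR). CXCL1 and CXCL2, its close paralogues and ligands of the same receptor, rose from 3.56 to 824 TPM and from 2.25 to 659 TPM in mean level. LPS replicate 2 was the lowest of the LPS libraries for each of these 4 genes, and every LPS library was above every control. The 3 paralogues share much of their sequence and reads could have been divided between them, so their order is uncertain.

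CXCL10 and CXCL11, ligands of the lymphocyte receptor CXCR3 that interferon also induces, rose from 2.54, 1.92 and 2.03 to 535, 354 and 847 TPM and from 0.313, 0.474 and 0.209 to 32.6, 17.5 and 44.5 TPM. In both, LPS replicate 3 was the highest, unlike CXCL8 or CXCL3. CXCL9, the third CXCR3 ligand, had 2 counts over the controls and 116 with LPS, a ratio of 62.0 with a 95% counting interval of 16.8 to 518 that covers counting error only. CXCL6 rose by 3.43 ± 0.52 on the log2 scale and reached 8.40 TPM, and CXCL16 was the member that was not called (1.96 to 1.88 TPM). CXCL5 did not pass the filter.

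Promoter stretches with a match are shown for some of the genes that rose, since NF-κB and AP-1 are known factors of the LPS response, and they were picked for their matches. RefSeq promoter windows (GRCh38.p14, 250 bases before the start) were searched on both strands for the 10-letter NF-κB consensus, for the AP-1 letters TGACTCA or TGAGTCA, which are each other's reverse complement, and for AAAGGTCA, the NGFI-B response element to which NR4A receptors bind as monomers. The consensus stood in 5.21% of 35116 promoters, the AP-1 letters in 4.20% and AAAGGTCA in 1.05%. The table held 977 of the 1574 called genes (62.1%), too few to compare shares between called genes and the rest. CXCL1, CXCL2 and CXCL3 have the same letters at almost the same distance, 70, 69 and 70 bases before the start, and the 3 stretches below are written 5′ to 3′ on the gene's strand with the match in capitals.
CXCL1, chr4:73869304-73869333, plus strand: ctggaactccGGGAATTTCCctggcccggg
CXCL2, chr4:74099254-74099283, minus strand: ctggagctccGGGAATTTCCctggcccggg
CXCL3, chr4:74038749-74038778, minus strand: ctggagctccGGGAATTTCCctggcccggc
The next 3 stretches hold the consensus near CXCL10, the chemokine gene CCL20 and the inhibitor gene NFKBIA, in capitals, and CCL20 and NFKBIA hold it on the opposite strand. CXCL10 held a further match nearer its start, and one position can match on both strands.
CXCL10, chr4:76023640-76023699, minus strand: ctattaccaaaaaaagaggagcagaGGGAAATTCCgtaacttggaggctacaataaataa
CCL20, chr2:227813738-227813797, plus strand: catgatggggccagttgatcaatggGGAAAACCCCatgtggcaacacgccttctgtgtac
NFKBIA, chr14:35404796-35404855, minus strand: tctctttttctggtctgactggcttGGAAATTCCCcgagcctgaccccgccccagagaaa
CXCL8 and TNFAIP6 instead held AP-1 letters, in capitals here, and no consensus match, which says only that those letters are not in the window.
CXCL8, chr4:73740407-73740463, plus strand: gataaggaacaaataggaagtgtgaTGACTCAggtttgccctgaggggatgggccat
TNFAIP6, chr2:151357438-151357494, plus strand: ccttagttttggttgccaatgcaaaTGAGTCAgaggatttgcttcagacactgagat
AAAGGTCA was not found in the windows of NR4A1, NR4A3 or any of the 15 genes with the largest increases that the table holds. ATF3, a stress-induced transcription factor that rose by 3.24 ± 0.16 on the log2 scale, had it 195 bases before 1 of its starts. Of those same genes in the table, CXCL2, CXCL3, CXCL10 and MIR3142HG held the consensus and IL1A and TNFAIP6 AP-1 letters, while IL1B, ACOD1, SHROOM3, RNF223 and FRMD7 held neither. Among the 15 genes with the largest decreases, CCR2 held AP-1 letters and INKA1 the consensus. A match is a description of the letters, not a measured binding site.

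Of the CC chemokines, which attract monocytes and T cells, 6 of 9 tested members were called higher and none lower, with a median log2 fold change of 4.73. CCL4 (chr17:36103590-36105621), an attractant of monocytes and T cells, went from 1.37, 1.56 and 0.686 TPM to 1444, 1014 and 1215 TPM, and its log2 fold change of 10.22 ± 0.26 was the largest of any protein-coding gene. Its near-identical copy CCL4L2 went from 3.14, 3.24 and 1.85 to 1902, 1266 and 1577 TPM, and reads of the 2 copies cannot be assigned with certainty. CCL3, a related chemokine with close copies, rose from 4.496 to 971 TPM, and CCL20, the ligand of CCR6, from 5.48 to 1118 TPM. CCL2, the monocyte attractant MCP-1, rose from 3.41, 3.42 and 3.81 TPM to 111, 55.6 and 73.7 TPM, a log2 fold change of 4.73 ± 0.29. CCL8 rested on 1 count over the controls, a ratio of 181 with a 95% counting interval of 32.0 to 7174. CCL5 (RANTES) already stood at 279, 281 and 293 TPM without LPS and rose to 556, 449 and 544 TPM, by 1.095 ± 0.12 on the log2 scale, the smallest called change of the class. CCL22, CCL23 and CCL24 were not called and lay between -0.17 and 0.33.

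**Figure D3:**
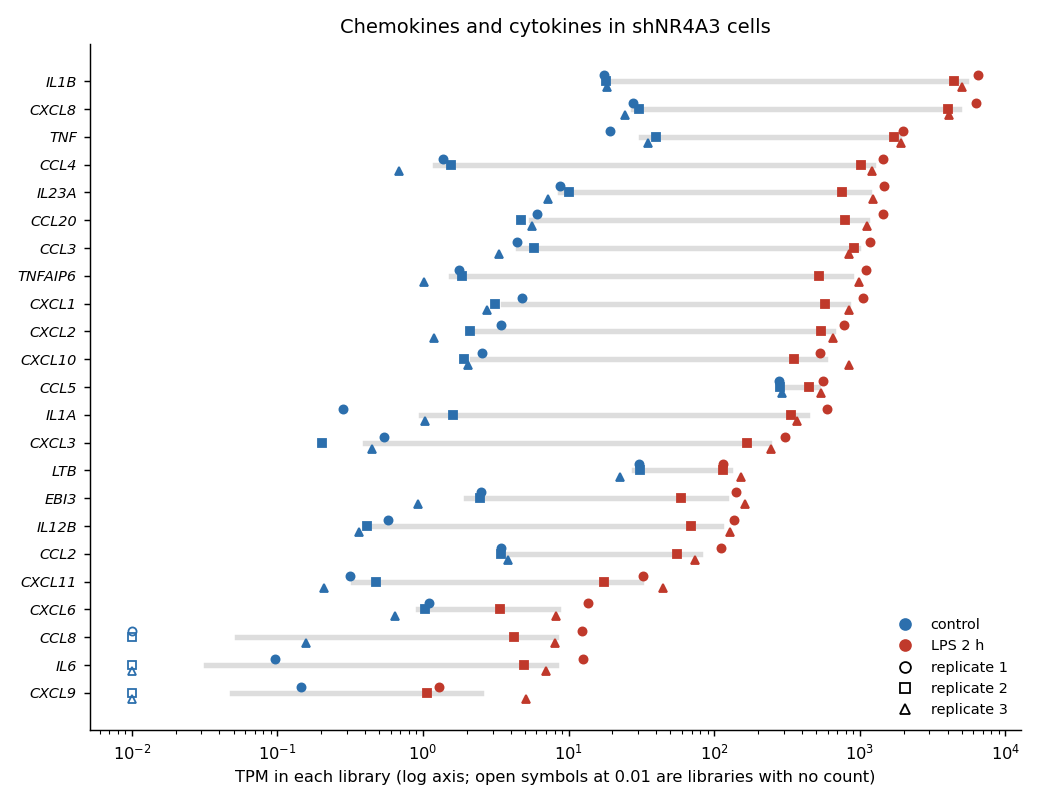
TPM of TNFAIP6 and 22 chemokine and cytokine genes in each control (blue) and LPS (red) library of shNR4A3 cells, on a log axis, ordered by the mean with LPS, with symbols for the replicate and a grey line between the means. All are separated by LPS, and replicate 2 is the lowest LPS library for each of them except CCL3.

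Among interleukins and growth factors, 9 of 13 tested members were called higher and none lower (median log2 fold change 5.12). IL1B, the secreted pyrogenic cytokine that inflammasomes process, went from 17.5, 18.05 and 18.3 TPM to 6508, 4415 and 5054 TPM, a log2 fold change of 8.45 ± 0.20 and the highest cytokine level with LPS. IL1A, its alarmin relative, went from 0.282, 1.60 and 1.03 to 596, 337 and 371 TPM (9.07 ± 0.38). The controls of IL1B lay within a narrow range and those of IL1A spread widely, and in both genes all LPS libraries were far above. Their natural antagonist IL1RN was higher by 0.70 ± 0.21 on the log2 scale (adjusted p = 0.0265, edgeR), under 2-fold. Subunits of the IL-12 family separated: IL23A (p19) rose from 8.68 to 1155 TPM, IL12B (the p40 subunit shared by IL-12 and IL-23) from 0.449 to 112 TPM and EBI3 from 1.96 to 121 TPM, while IL12A (p35) had 17 counts without LPS and 6 with it and was not tested. IL6 stayed low, with 12.5, 4.95 and 6.96 TPM in the LPS libraries and 1 count over the controls, a ratio of 291 with a 95% counting interval of 51.7 to 11520.3. LIF and CSF1 rose by 4.26 ± 0.32 and 2.14 ± 0.24, CSF3 from 2 to 78 counts, and IL10 (4 and 32 counts), IL36G (3 and 82) and CSF2 (0 and 4) were below the filter. IL18, OSM and VEGFA were not called.

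The TNF superfamily moved both ways, with 6 members called higher and 2 lower of 14 tested and a median log2 fold change of 0.22. The shares were 42.9% and 14.3%, beside 6.17% and 4.09% of all genes tested. TNF itself went from 19.3, 39.8 and 35.2 TPM to 1964, 1712 and 1929 TPM, a log2 fold change of 6.14 ± 0.22, and its LPS libraries lay closer together than those of any other gene in the plot of chemokines and cytokines. Lymphotoxin genes LTA and LTB rose by 3.03 ± 0.38 and 2.43 ± 0.16, the ligand TNFSF15 by 4.12 ± 0.42, and the costimulatory receptors TNFRSF9 (4-1BB) and CD40 by 6.58 ± 0.43 and 3.53 ± 0.24. In the other direction, TNFRSF1A, the main receptor for TNF, fell from 115, 128 and 109 TPM to 36.6, 44.2 and 40.1 TPM (-1.31 ± 0.09), and TNFSF14 (LIGHT) from 48.4, 43.3 and 48.3 to 7.04, 7.92 and 6.97 TPM (-2.45 ± 0.11). TNFRSF1B, the second TNF receptor, was lower, at -0.96 ± 0.14 on the log2 scale (adjusted p = 0.000447, edgeR), just under the 2-fold limit, and so were TNFSF10 and TNFSF13B, at -0.94 ± 0.21 and -0.85 ± 0.18. Without LPS replicate 2, 3 members were called lower.

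The 5 genes called higher with the most RNA with LPS were FTH1, IL1B, CXCL8, PLEK and BTG2, and they took 0.169%, 0.136% and 0.159% of TPM in the controls and 2.47%, 1.70% and 2.01% with LPS. FTH1, the heavy chain of the iron store ferritin, went from 1365, 1020.1 and 1293 to 6711, 4352 and 6229.9 TPM, and this gene has many processed copies that can share its reads. PLEK (pleckstrin, a protein kinase C substrate of blood cells) went from 228, 236 and 201 to 2969, 2084 and 2481 TPM, and BTG2, an antiproliferative regulator of mRNA deadenylation, from 46.8, 57.3 and 57.3 to 2276, 2134 and 2198 TPM. The LPS libraries lay close together for BTG2, whereas FTH1 and PLEK were clearly lowest in replicate 2.

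Several of the 15 largest increases, ranked by the fitted log2 fold change, were outside the cytokines. TNFAIP6, a secreted hyaluronan-binding protein, went from 1.77, 1.86 and 1.01 TPM to 1101, 523 and 989.9 TPM, a log2 fold change of 9.38 ± 0.39. SHROOM3 (chr4:76435100-76783253), an actin-binding regulator of cell shape in epithelia, had 0.0909, 0.155 and 0.0757 TPM without LPS and 63.8, 44.1 and 59.0 TPM with it (9.25 ± 0.27). ACOD1, the enzyme that makes itaconate, had 1 count over the controls and 622 with LPS, a ratio of 665 with a 95% counting interval of 119 to 26291. RNF223, a ring finger gene, and FRMD7, a FERM domain gene, had no count in the controls and 242 and 154 counts with LPS, at least 86.2-fold and at least 54.8-fold higher against the floor of 3 counts over the group. LPS replicate 2 was the lowest of the 3 for all 5 of these genes. With no control count, RNF223 and FRMD7 rank among the 15 by the fitted value and not by their bound. CXCL1, which is not among the 15, had 67 counts over the controls and a fitted rise of 271-fold.

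The largest fitted change of any gene was that of a noncoding RNA. MIR3142HG (chr5:160468268-160487426), the host transcript of miR-146a, went from 0.433, 0.0983 and 0.0865 TPM, 7 counts in all, to 295, 232 and 214 TPM, a log2 fold change of 10.35 ± 0.30 (adjusted p = 1.34e-09, edgeR). MIR155HG (chr21:25561909-25575168), the host of miR-155, was already expressed and went from 23.2, 18.2 and 19.4 to 255, 200.3 and 261 TPM (3.79 ± 0.17). Both miRNAs lie inside their host gene on the same strand, and are known regulators of TLR signalling, the first of IRAK1 and TRAF6, which act downstream of the receptors, and the second of SOCS1 among others. The mature 5′ arms from RefSeq (GRCh38.p14) are shown with the seed, bases 2 to 8, in capitals.
hsa-miR-146a-5p, chr5:160485372-160485393: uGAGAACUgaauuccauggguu
hsa-miR-155-5p, chr21:25573983-25574006: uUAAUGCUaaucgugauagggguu
The seeds differ. The libraries were made from polyadenylated RNA, so the host transcripts were measured and the mature miRNAs were not. The promoter window of MIR3142HG held the NF-κB consensus, in capitals, 111 bases before the start.
MIR3142HG, chr5:160468106-160468165, plus strand: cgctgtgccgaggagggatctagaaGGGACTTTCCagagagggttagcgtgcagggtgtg
Of the listed inflammation-linked long noncoding RNAs, 5 of 11 tested were called higher and none lower (median log2 fold change 0.71). NEAT1, the scaffold of nuclear paraspeckles, rose by 1.83 ± 0.20, MIR22HG by 1.57 ± 0.23 and LUCAT1 by 1.99 ± 0.39. MALAT1 was not called and had 157, 35.1 and 132 TPM in the controls, low in replicate 2, and 122, 176 and 164 TPM with LPS.

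Other noncoding genes with the largest increases had no count in any control library. MIR3945HG (chr4:184844585-184855751) and LINC01093 (chr4:184893871-184899454) lie close together on chromosome 4 and had 338 and 109 counts with LPS, at least 120.4-fold and at least 38.8-fold higher. AC083837.1 (chr8:78837529-78840522) and AC009414.2 (chr2:36354749-36355114) were at least 110.0-fold and at least 33.1-fold higher against the same floor. Among the noncoding genes that fell most were the pseudogenes ELL2P1 (from 2.80 to 0.217 TPM) and RN7SL32P (35 counts without LPS and 3 with it), AC093278.2 (-2.52 ± 0.34), AC110285.6 (-2.48 ± 0.39) and AC068580.3 (-2.34 ± 0.44). Whether counting used strand is not given in the sources used here, so reads of AC068580.3, an antisense gene, and AC093278.2, which overlaps another gene, cannot be told apart from their partners' reads.

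TLR4 and CD14, which sense LPS, were not called, while parts of their signalling chain rose. Of the LPS receptor and TLR adaptor genes, 6 were called higher and 1 lower of 17 tested, with a median log2 fold change of 0.09. The shares were 35.3% and 5.88%, beside 6.17% and 4.09% of all genes tested. TLR4 was higher by 0.67 ± 0.17 on the log2 scale (23.0, 22.04 and 18.03 TPM without and 33.2, 31.9 and 20.6 TPM with LPS; adjusted p = 0.0138, edgeR), under 2-fold, CD14 was not called (39.9 to 27.0 TPM), and LY96 had too few counts to test. TLR2, the receptor of bacterial lipoproteins, rose from 109 to 287 TPM and its partners TLR1 and TLR6 were lower, at -0.63 ± 0.18 and -0.57 ± 0.13, under 2-fold. The kinases IRAK2 and MAP3K8 (TPL2, the MAP kinase kinase kinase upstream of ERK) rose most, from 9.10, 11.9 and 9.72 to 264, 145 and 256.0 TPM and from 9.58, 13.2 and 10.6 to 211, 91.7 and 217 TPM. The adaptor gene TICAM1, which encodes TRIF, rose by 2.72 ± 0.17 and TIRAP, which bridges TLR4 to MyD88, fell by 1.18 ± 0.14. IRAK1, IRAK4, TRAF6 and MAP3K7 were not called and lay between -0.10 and 0.09.

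NF-κB is held in the cytoplasm by IκB proteins until IκB kinase marks them for destruction. In this list 11 of 15 tested members were called higher and none lower (median 1.88). Among the subunits, NFKB2 (p100) went from 21.4, 21.2 and 17.1 TPM to 653, 411 and 599 TPM (5.04 ± 0.21), NFKB1 (p105) rose from 45.7 to 507 TPM, RELB from 34.4 to 388 TPM and REL from 7.33 to 69.0 TPM, while RELA was higher by 0.32 ± 0.09, under 2-fold. Among the inhibitors, NFKBIA (IκBα) was the most abundant and went from 148, 154 and 141 TPM to 1818, 1636 and 1674 TPM (3.76 ± 0.10). NFKBIZ, a nuclear IκB protein that co-activates IL6 and other late genes, changed most, from 3.82, 3.68 and 3.00 TPM to 524, 496 and 443 TPM (7.35 ± 0.14). NFKBIB, NFKBIE, NFKBID and BCL3 rose by 1.70, 1.38, 2.08 and 1.88 on the log2 scale. The kinase genes CHUK, IKBKB and IKBKG were not called, with log2 fold changes of 0.22, 0.07 and -0.05, and the related IKBKE rose by 1.13 ± 0.11.

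Feedback inhibitors and mRNA decay factors had 10 members called higher and 3 lower of 20 tested (median 1.35). TNFAIP3 (A20, a ubiquitin editor that stops NF-κB signalling) went from 23.4, 19.98 and 18.1 TPM to 1540.0, 1416 and 1171 TPM (6.30 ± 0.17). Its partner TNIP3 had the largest change of the list, from 0.212, 0.180 and 0.211 to 70.4, 29.7 and 54.5 TPM (8.19 ± 0.47). ZC3H12A (regnase-1, an endonuclease of cytokine mRNAs) rose from 15.6 to 657 TPM, TRAF1 from 1.69 to 70.0 TPM and SOCS3, an inhibitor of cytokine receptor signalling, from 9.59 to 386 TPM. CISH and SOCS1, of the same family, went the opposite way. CISH fell from 9.94, 10.2 and 9.97 to 1.37, 2.05 and 1.93 TPM and SOCS1 from 15.3, 27.1 and 17.1 to 3.92, 6.18 and 9.16 TPM. The zinc finger decay factors differed as well, since ZFP36 (tristetraprolin) was higher by 0.94 ± 0.10, just under 2-fold, and ZFP36L2 fell from 629.5, 654 and 605 TPM to 146, 192 and 142 TPM (-1.76 ± 0.10). All LPS libraries were outside the range of the controls for these genes.

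Decay factors of the ZFP36 family bind AU-rich elements. The letters TTATTTATT were counted in the longest annotated 3′ UTR of each protein-coding gene (GENCODE 29, sense strand). They stood in 107 of the 655 genes called higher that have such a UTR (16.3%), in 30 of the 132 that rose at least 16-fold (22.7%) and in 58 of 521 called lower (11.1%), against 1178 of all 12759 tested (9.23%). Per 1000 bases of UTR the counts were 0.112, 0.163, 0.0866 and 0.0637 in the same order, with median UTR lengths of 1515, 1304, 1374 and 1345 bases. CXCL2 and TNF held 5 each, IL12B and CXCL1 held 3, and IL1B held 2. Genes that rose at least 16-fold also had a median genomic span of 17897 bases, against 32152 for all tested, and genes called lower 15320.0 bases. These shares were not tested and describe the annotation.

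Immediate early transcription factor genes were largely higher at 2 h, with 13 called higher and 2 lower of 20 tested (median 2.35). EGR2 and EGR3 rose most, from 1.89, 1.47 and 1.19 to 112, 105 and 102 TPM and from 0.411, 1.35 and 0.246 to 47.7, 56.7 and 26.2 TPM, with EGR1 from 12.4 to 122 TPM. Of the AP-1 subunits JUN rose from 97.6 to 677 TPM, JUNB from 91.0 to 528 TPM and FOSB from 1.85 to 6.69 TPM, while FOS was not called (45.5, 44.9 and 47.2 TPM without and 52.9, 39.1 and 35.6 TPM with LPS, 0.12 ± 0.15) and FOSL2 was lower, at -0.74 ± 0.13, under 2-fold. MYC, the growth regulator, fell from 359, 401 and 356 TPM to 81.0, 51.7 and 66.5 TPM (-2.24 ± 0.16; adjusted p = 1.96e-06, edgeR). BATF stood at the limit with -1.002 ± 0.18, and it was the member lost when replicate number was a block (1 lower) or LPS replicate 2 was left out (1 lower). The DUSP genes, phosphatases that switch off MAP kinases, had 5 higher and 1 lower of 11 (median 0.96). The shares were 45.5% and 9.09%, beside 6.17% and 4.09% of all genes tested. DUSP8 (4.78 ± 0.14), DUSP1 (3.40 ± 0.21) and DUSP16 (3.39 ± 0.20) led, and DUSP7 fell by 1.202 ± 0.15.

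Interferon genes were low in level even with LPS. IFNB1, the type I interferon that TRIF signalling induces, had no count in the controls and 3.44, 4.41 and 2.34 TPM with LPS, at least 16.03-fold higher against the floor of 3 counts. Of the interferon genes and their regulators, 2 were called higher (IFNB1 and IRF4) and 1 lower of 9 tested (median 0.65, and 0.65 with IFNB1 at its bound). The lower one was IRF5, which fell from 126, 116 and 94.8 TPM to 36.5, 47.9 and 30.5 TPM (-1.34 ± 0.15), and IRF1, IRF7 and IRF9 were higher by 0.65, 0.91 and 0.86 on the log2 scale, under 2-fold. Interferon-stimulated antiviral genes had 8 called higher and none lower of 30, with a median log2 fold change of 0.52. The share called higher was 26.7%, beside 6.17% of all genes tested. At an adjusted p under 0.05 without the fold limit 19 were higher, where 13.1% of all genes tested were. GBP1, OASL and IFIT2 led, with log2 fold changes of 2.79 ± 0.39, 2.36 ± 0.26 and 2.20 ± 0.22, and IFIH1, the RNA sensor MDA5, rose from 10.4, 10.04 and 12.2 to 39.7, 30.5 and 43.3 TPM. RSAD2, CMPK2, BST2 and IFI6 were not called, at -0.17, -0.04, 0.10 and 0.28. The study singled out antiviral genes in these libraries, so the list is not independent evidence of its direction.

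None of the 16 class I antigen presentation genes tested was called at 2-fold (10.3% of all genes tested were called), 6 were higher and none lower at an adjusted p under 0.05, and the median was 0.17. HLA-B, which presents peptides to T cells, and TAP1, a peptide transporter, were among those, at 0.66 ± 0.14 and 0.71 ± 0.11. Of 13 class II genes tested 2 were called, HLA-DRA (from 23.7, 17.3 and 17.4 to 46.5, 41.6 and 37.8 TPM) and the T cell costimulator CD80 (from 0.187, 0.424 and 0.249 to 4.21, 1.53 and 3.92 TPM), and the other costimulator of the pair, CD86, was not (-0.78 ± 0.33, adjusted p = 0.106, edgeR). The HLA genes are polymorphic and similar to each other, so reads may have been lost or divided. The study named genes of both lists on these samples, which are therefore not independent evidence.

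Of 19 tested survival, death and inflammasome genes, 7 were called higher and none lower (median 0.58). BIRC3, an inhibitor of apoptosis in TNF receptor complexes, went from 0.636, 0.692 and 0.662 TPM to 56.8, 48.1 and 64.7 TPM (6.64 ± 0.18), and BCL2A1, an anti-apoptotic BCL2 relative, from 5.86, 3.74 and 3.11 to 397, 200.2 and 335 TPM (6.43 ± 0.34). CFLAR, BCL2L11, PMAIP1 and GADD45A also rose, and of these BCL2L11 (BIM) and PMAIP1 (NOXA) encode pro-apoptotic proteins. At an adjusted p under 0.05 without the fold limit, 11 of the list were higher and 4 lower. NLRP3, PYCARD, GSDMD and CASP8 were lower, at -0.52, -0.31, -0.33 and -0.52 on the log2 scale, each under 2-fold. The caspase gene CASP4 was higher, at 0.52 ± 0.11, also under 2-fold, and CASP5 (3 counts without LPS and 85 with it) was not tested. In adhesion, coagulation and remodelling 8 were called higher and 2 lower of 21 (median 0.37, the same with VCAM1 at its bound). ICAM1, the ligand of leukocyte integrins, went from 7.91, 7.81 and 6.50 TPM to 597, 403 and 561 TPM (6.37 ± 0.20). Of coagulation genes, F3 (tissue factor, which starts coagulation) rose from 91.0 to 189 TPM and THBD (thrombomodulin, an anticoagulant) fell from 386, 405 and 338 TPM to 139, 90.2 and 74.7 TPM (-1.65 ± 0.20). SERPINB2, an inhibitor of plasminogen activators, fell by 2.005 ± 0.17 while PLAU rose by 1.44 ± 0.14. VCAM1 had no count in the controls and was at least 25.3-fold higher. Without LPS replicate 2, 3 of this list were called lower.

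In metabolism 8 of 20 tested genes were called higher and none lower (median 0.36). SOD2, the mitochondrial superoxide dismutase, went from 18, 18.9 and 15.98 TPM to 1931, 1070.1 and 1678 TPM (6.71 ± 0.25) and PTGS2, the inducible cyclooxygenase, from 0.870, 1.37 and 1.96 to 134, 74.4 and 65.1 TPM (6.26 ± 0.36). SLC2A6, a lysosomal hexose transporter, rose from 12.2 to 473 TPM, and the plasma membrane glucose transporter SLC2A1 was lower, at -0.74 ± 0.13, under 2-fold. Glycolytic enzymes HK1, HK2, HK3, PFKFB3 and LDHA were not called and lay between -0.29 and 0.29. Of metallothioneins and zinc transporters 2 of 8 were called higher, MT2A (1.24 ± 0.21) and the zinc importer SLC39A8 (1.403 ± 0.19), with a median of 0.05. Cholesterol genes had 1 of 13 called (LPL, 1.90 ± 0.20; median 0.17). Cell cycle genes had 3 of 19 called (PLK3, CCNE2 and CCND1; median -0.0047), and MKI67, TOP2A, PCNA and MCM2 were not called, at -0.20, -0.12, 0.02 and 0.01. Heat shock and stress genes had 2 of 17 called, XBP1 and DDIT4 (median 0.37), and 3 were called when LPS replicate 2 was left out. In the cholesterol, cell cycle and stress lists the shares called were 7.69%, 15.8% and 11.8%, beside 10.3% of all genes tested, which is close to the background for lists of this size. TXNIP, a thioredoxin inhibitor that glucose induces, was lower, at -0.77 ± 0.15 (1225, 1455 and 1298 TPM without and 707, 502 and 768 TPM with LPS), under 2-fold.

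Receptors for chemoattractants and prostanoids were the list with the lowest median, -0.63, with 7 of 19 tested called lower and 5 higher. The shares were 36.8% lower and 26.3% higher, beside 4.09% and 6.17% of all genes tested. CCR2 (chr3:46353734-46360928), the receptor for CCL2 that takes monocytes out of the marrow, fell from 370.1, 299 and 261 TPM to 21.0, 28.5 and 11.4 TPM, a log2 fold change of -3.73 ± 0.26 (adjusted p = 1.78e-06, edgeR). CCR1 fell from 146, 144 and 106 to 28.1, 22.1 and 15.5 TPM and CX3CR1, the fractalkine receptor of patrolling monocytes, from 70.0, 52.1 and 61.1 to 11.5, 16.3 and 12.1 TPM. CXCR2, the receptor for CXCL1 to CXCL3 and CXCL8, fell by 1.83 ± 0.23, and FPR2 and P2RY2 by 1.81 and 1.45 on the log2 scale. The receptors that rose were CCR7, which guides cells to lymph nodes (from 0.358 to 2.67 TPM), C3AR1 (from 20.4 to 185 TPM), GPR84 (from 7.61 to 83.4 TPM) and the cyclic AMP-coupled receptors PTGER2 (from 0.142 to 7.14 TPM) and ADORA2A (from 0.113 to 4.89 TPM). All LPS libraries lay outside the control range for these genes.

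CCR2 was also among the 15 genes with the largest decreases. FFAR4, the receptor of long-chain fatty acids, changed most of the 15, from 3.34, 2.23 and 2.84 TPM to 0.0910, 0.165 and 0.0412 TPM (-4.60 ± 0.44). ADORA3 (adenosine), GPR65 (a proton sensor) and GPR82, an orphan receptor, fell by 3.26, 3.19 and 2.80 on the log2 scale. CASS4, a focal adhesion scaffold, and INKA1, an inhibitor of PAK4, fell from 3.499, 3.70 and 3.93 to 0.219, 0.308 and 0.0661 TPM and from 27.0, 33.1 and 31.4 to 1.60, 1.93 and 2.25 TPM. The transcription factor genes were NFE2, which drives platelet formation (from 39.2, 31.2 and 27.5 to 1.27, 4.06 and 1.63 TPM), and the homeobox genes DLX3 (-3.68 ± 0.33) and HMX2 (-2.86 ± 0.47). C16orf54, IL16, a T cell attractant, and B3GNT8, a glycosyltransferase, fell from 104 to 11.3 TPM, 2.45 to 0.282 TPM and 38.7 to 4.42 TPM. Among the LPS libraries replicate 2 was the highest for FFAR4, CASS4, CCR2, NFE2 and DLX3, and separation of the groups was part of the rule that chose these genes.

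Transcription factors of the myeloid lineage split, with 4 called higher and 5 lower of 15 tested (median -0.13). The shares were 26.7% and 33.3%, beside 6.17% and 4.09% of all genes tested. CEBPA, the factor that commits progenitors to the myeloid lineage, was the most abundant gene to fall in the list, from 1121, 1281 and 1009.6 TPM to 150.2, 271 and 141 TPM (-2.39 ± 0.19). GFI1, a transcriptional repressor required for granulocyte development, fell from 298, 322 and 263 TPM to 34.3, 62.4 and 29.98 TPM (-2.59 ± 0.21), MYB from 263 to 66.0 TPM, HHEX from 33.9 to 4.5 TPM and CEBPE from 5.54 to 1.41 TPM. The 4 that rose were BCL6 (from 8.69, 7.70 and 6.87 to 126, 98.9 and 106 TPM), ETS2, PRDM1 and CEBPD, the last near the limit with 1.01 ± 0.17, and 3 of them were called with replicate number as a block. SPI1 (PU.1) was higher by 0.79 ± 0.12, under 2-fold, and CEBPB was not called (-0.13). Of KLF and ID genes 2 were called higher (KLF5 and KLF6) and 2 lower (ID2, from 244 to 70.6 TPM, and ID3) of 13 (median -0.15). Each share was 15.4%, beside 6.17% higher and 4.09% lower of all genes tested. With the block 3 were higher, and 3 were lower when LPS replicate 2 was left out.

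**Figure D4:**
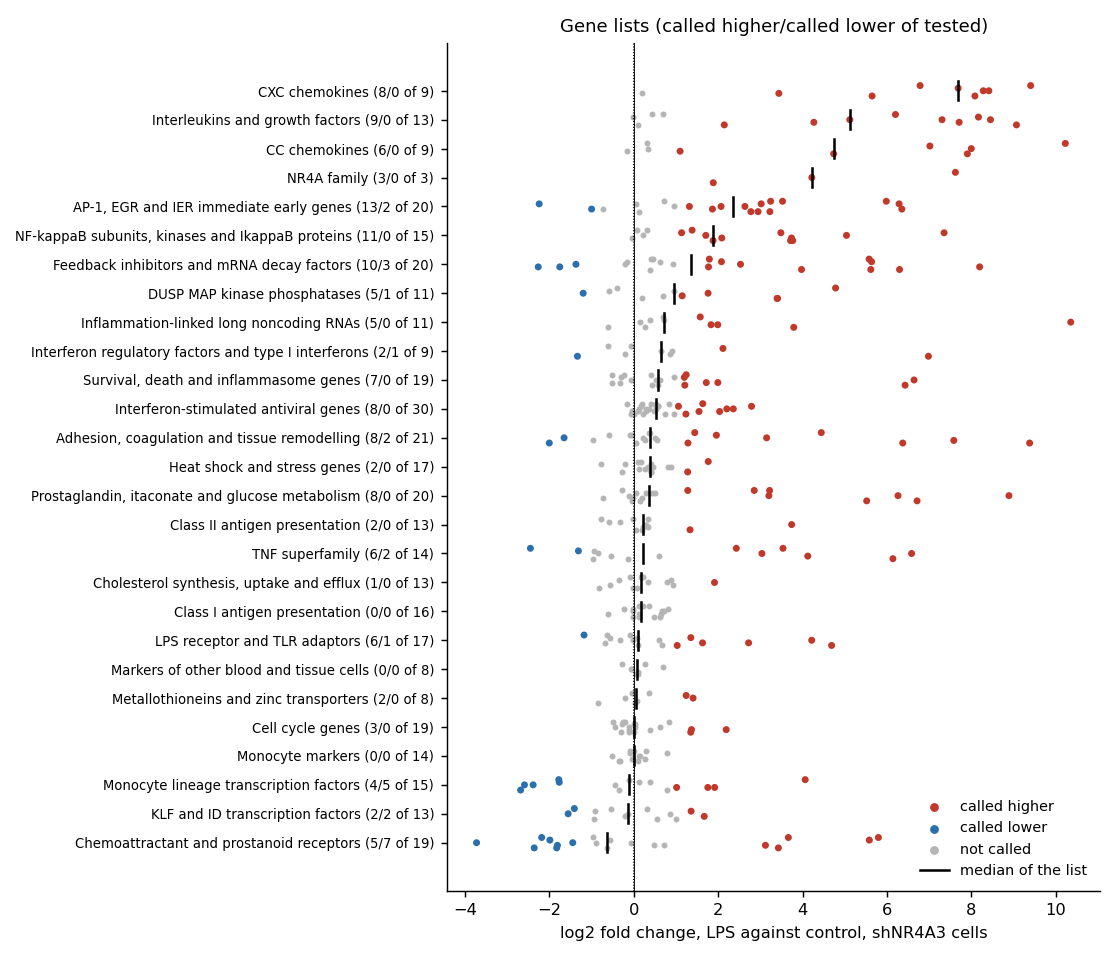
Log2 fold change with LPS in shNR4A3 cells of each tested member (points) of 27 gene lists, with the list's median as a bar, red and blue for genes called higher and lower, and the dotted line at the median of all genes tested. The chemokine and cytokine lists lie farthest to the right, and chemoattractant receptors and lineage factors each hold more called decreases than any other list.

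The LPS response was then set beside that of the other lines, whose libraries are separate. Of genes tested in both, 977 of the 1494 called in shNR4A3 cells (65.4%) were also called in shNT cells, which is 86.6% of the 1128 called there (calls made up 7.56% of genes tested in shNT cells), and all 977 had the same direction. With shNR4A2 cells the shared calls were 1116, or 72.7% and 85.9% of the 2 sets, where 8.76% of genes tested were called in shNR4A2 cells, 5.26% higher and 3.5% lower. To compare sizes on genes that neither shNR4A3 nor shNT cells had chosen, the 735 genes called higher in shNR4A2 cells and tested in all 3 lines were used. Their median log2 fold change was 2.40 in shNR4A3 and 1.93 in shNT cells, and 602 of them (81.9%) changed more in shNR4A3 cells. For the 515 called lower there the medians were -1.29 and -1.11, and 352 (68.3%) changed more in shNR4A3 cells. For shNR4A2 cells the reference was the calls of shNT cells, and the 665 genes called higher there had medians of 2.59 in shNR4A3 and 2.37 in shNR4A2 cells, with 457 (68.7%) changing more in shNR4A3 cells, and the 442 called lower in shNT cells had -1.36 and -1.30, with 253 (57.2%). By library, against the mean of the line's own controls, the 735 genes called higher in shNR4A2 cells had median log2 ratios of TMM-scaled CPM of 2.16, 1.68 and 2.04 in the shNR4A3 LPS libraries and 1.59, 1.43 and 1.52 in those of shNT, so that even shNR4A3 replicate 2, the weakest, was above the shNT libraries. The line that chose the 735 and 515 genes, shNR4A2, is itself a knockdown line. Across genes tested in both lines, log2 fold changes of shNR4A3 cells correlated at 0.943 with those of shNR4A2 cells and at 0.935 with those of shNT cells. Genes called in shNR4A2 cells may thus favour responses that the knockdown lines share, and the sizes compared on them are not free of that choice. These medians and shares are descriptions with no test.

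For single genes the difference between lines was tested as an interaction of line and LPS. None of 16428 genes passed an adjusted p of 0.05 against shNT cells (0%; smallest 0.129, and 824 genes at an unadjusted p under 0.05), and none of 16447 against shNR4A2 cells (smallest 0.900, and 396 unadjusted) in edgeR. DESeq2 called 10 and 1 (AL663070.1), and edgeR with no filter on low counts 138 and 29. Without shNR4A3 LPS replicate 2, 44 genes were called against shNT cells, 42 of them with the more positive change in shNR4A3 cells. These 42 included BIRC3, BCL2A1, TRAF1, CD44, CFLAR, IFIT2 and IFIT3, which were picked out after their values were seen. That library had the weakest response for 70.9% of the genes called higher in shNR4A3 cells. Leaving it out therefore favoured the more positive direction in advance. The genes with the smallest p were, against shNT, the noncoding LINC01268 (a log2 difference of 1.17 ± 0.18, adjusted p = 0.129), TP53INP2, a regulator of autophagy (1.29 ± 0.22), AL663070.1 (1.26 ± 0.21), LINC01547 (1.21 ± 0.21) and KDM6B, the histone H3 lysine 27 demethylase JMJD3 (0.84 ± 0.16). These 5 genes and CXCR4 were each among the genes called by DESeq2 and among those called without LPS replicate 2. KDM6B went from 12.3, 16.9 and 14.6 TPM to 108, 112 and 106 TPM in shNR4A3 cells, a log2 fold change of 3.13, against 2.29 in shNT cells. TP53INP2 went from 27.3, 27.2 and 27.5 to 166, 113 and 126 TPM (2.54, against 1.25), and its control level was lower in shNR4A3 than in shNT cells (27.4 and 54.8 TPM). In the negative direction stood CXCR4, the receptor of CXCL12 (-1.56 ± 0.31, adjusted p = 0.322), STBD1 (-1.05 ± 0.22), EPS8L3 (-2.02 ± 0.43), FFAR4 (-2.87 ± 0.64) and the pseudogene NUDT16P1 (-2.17 ± 0.52, on 33 and 5 counts in shNR4A3 cells).

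Against shNR4A2 cells, the 5 genes with the smallest p and the more positive change in shNR4A3 cells were AL663070.1 (1.24 ± 0.22, adjusted p = 0.900), AL139393.2 (1.14 ± 0.23), GOLGA8A (0.80 ± 0.16), NR4A3 (2.18 ± 0.48) and AC083843.2 (1.76 ± 0.39). Those with the more negative change were EPS8L3 (-1.73 ± 0.43), SNAI3 (-1.32 ± 0.33), ELL2P1 (-2.93 ± 0.74), PLEKHD1 (-2.30 ± 0.61) and BLNK (-1.51 ± 0.40). GOLGA8A belongs to a family of near-identical copies. For the other NR4A genes the differences were 0.40 ± 0.29 (NR4A1) and -0.08 ± 0.26 (NR4A2) against shNT cells.

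**Figure D5:**
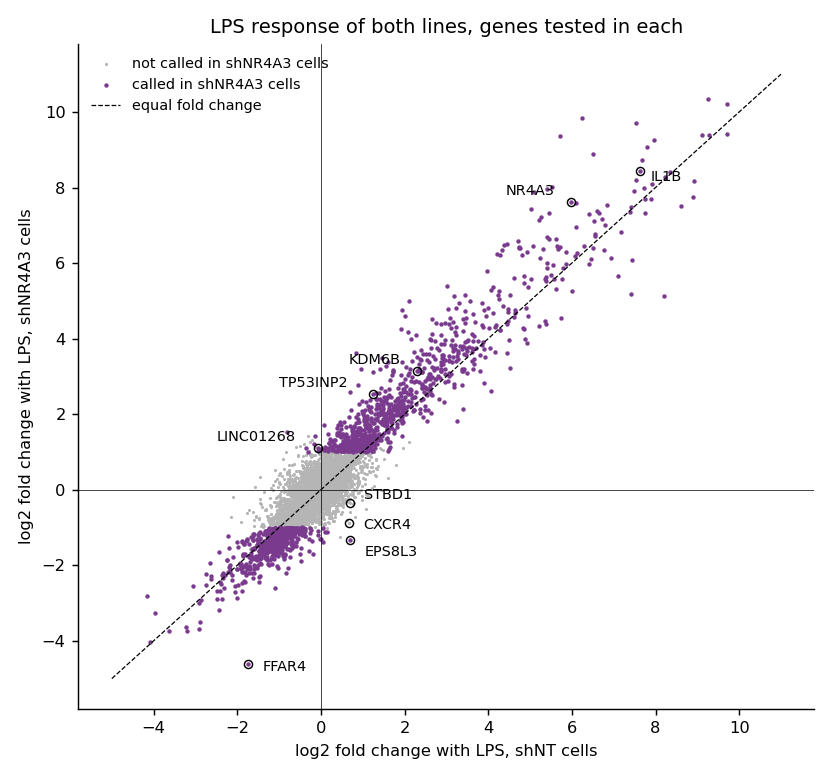
Log2 fold change with LPS of each gene tested in both lines, shNT cells on the x axis and shNR4A3 cells on the y axis, with genes called in shNR4A3 cells in purple and the line of equal change dashed. Called genes were chosen on the y axis, so that their side of the line is no finding, and CXCR4, STBD1 and EPS8L3 lie in the quadrant of opposite signs.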

How the data were processed

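RNA of 18 THP-1 cultures (6 groups of 3) was sequenced from polyadenylated RNA, and the 6 shNR4A3 libraries were compared here. Per the labels, the authors trimmed reads with Trimmomatic (0.36), aligned them to GRCh38 with STAR (2.5.2b) and counted them per gene with featureCounts (Subread 1.5.2). The deposited files hold the resulting whole-number read counts of 57500 genes, not normalized. The strand setting, the handling of multi-mapping reads and the annotation release used for counting are not given in the sources used here. Gene symbols came from GENCODE 29 by gene ID (56898 matched, 602 did not), and promoters and miRNAs from RefSeq (GRCh38.p14).

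Genes with low counts were removed by filterByExpr, libraries were scaled by TMM, and groups were compared with edgeR's quasi-likelihood test (edgeR 4.0.16, R 4.3.3). P-values were adjusted by Benjamini-Hochberg over all genes tested, and calling a gene needed a change of 2-fold or more with an adjusted p below 0.05. Differences between lines were tested as the interaction of line and LPS over 12 libraries, called at an adjusted p under 0.05 without a fold limit. TPM was computed from the counts and the exonic lengths in the files. Log2 fold changes are given ± SE. Fold bounds used a floor of 3 counts over the 3 control libraries, and 95% intervals of count ratios were exact binomial, covering counting error only. The principal components used the 500 most variable genes (log2 CPM, prior count of 2). Medians of the response by library used log2 of TMM-scaled CPM plus 0.5.

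The genes named included the NR4A genes, members of gene lists and the 5 genes in each direction with the smallest interaction p. The 5 most abundant genes called higher and the 5 noncoding genes in each direction with the largest change were also named. So were the 15 largest increases and decreases by fitted log2 fold change. Those were taken among called genes without overlap and with a mean of at least 1 TPM in the higher group. The members and lists were chosen with earlier results of these data known, and the 3′ UTR letters were added after the data were seen. Same-numbered control and LPS libraries of shNR4A3 cells deviated together (correlations 0.231, 0.237 and 0.202 across genes, all over the limit of 0.1), so replicate number was also tried as a block. The other alternatives were DESeq2 (1.42.0), RLE scaling, no filter, all 18 libraries in 1 fit, other fold limits and leaving out each library. The scripts were tested on simulated data with known changes. There edgeR recovered 73% of 2-fold changes with LPS in shNR4A3 cells, and 6.18% of its calls were false. Its interaction test recovered 63% of 2-fold differences against shNT cells and 45% against shNR4A2 cells. Of the interaction calls 10% and 9.56% were false, so many 2-fold differences between lines could go uncalled. Some members of the gene lists are counted but not reported singly here.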

Additional observations from a re-analysis of the deposited data

Results flagged for a closer look

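Genes picked for the smallest interaction p are a choice that favours opposite signs. Of these, 3 had TMM-scaled CPM on opposite sides of the controls in a pair of lines, with no overlap between the groups in either line. In TPM the groups of AC083843.2 did overlap in shNR4A3 cells, at 1.147, 0.687 and 0.637 without and 1.152, 1.175 and 1.044 with LPS. In shNR4A3 cells CXCR4 had 44.5, 27.4 and 22.9 TMM-scaled CPM without LPS and 18.4, 19.2 and 13.3 CPM with it, and in shNT cells 19.4, 14.3 and 12.5 CPM without and 24.8, 24.6 and 23.9 CPM with LPS. The log2 difference between the responses was -1.56 (adjusted p = 0.322, interaction in edgeR), and the control groups of the 2 lines also did not overlap.

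EPS8L3, a gene of low level, had 1.35, 1.03 and 0.999 CPM without and 0.474, 0.388 and 0.467 CPM with LPS in shNR4A3 cells, against 1.03, 0.713 and 0.924 CPM without and 1.495, 1.697 and 1.17 CPM with LPS in shNT cells, a log2 difference of -2.02 (adjusted p = 0.432). The noncoding AC083843.2 had 1.95, 1.09 and 1.05 CPM without and 2.31, 2.14 and 2.02 CPM with LPS in shNR4A3 cells, against 2.83, 2.56 and 4.01 CPM without and 1.49, 1.38 and 1.55 CPM with LPS in shNR4A2 cells, a log2 difference of 1.76 (adjusted p = 0.99999). Within lines, the log2 fold changes of CXCR4 were -0.89 in shNR4A3 and 0.67 in shNT cells (adjusted p = 0.0133 and 0.00352), those of EPS8L3 -1.32 and 0.69 (adjusted p = 0.0142 and 0.114), and those of AC083843.2 0.66 in shNR4A3 and -1.10 in shNR4A2 cells (adjusted p = 0.128 and 0.0122), so that for EPS8L3 and AC083843.2 the change in 1 of the lines passed no test. None of the 3 interactions passed the adjusted threshold in edgeR with the filter on low counts, all libraries and no replicate block. Of the 3, CXCR4 was called by DESeq2 and by edgeR without shNR4A3 LPS replicate 2, and EPS8L3 and AC083843.2 by neither.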

How the results depend on the processing

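The number of genes called in shNR4A3 cells stayed within 1.5 times of 1574 under DESeq2 (1570, 1436 shared), RLE scaling (1556, 1544 shared), no filter (1888, 1540 shared), all 18 libraries in 1 fit (1764, 1553 shared) and the replicate block (1614, 1562 shared). With 1 library left out the count ranged from 1385 (LPS replicate 1) to 1801 (LPS replicate 2). It moved with the fold limit. Testing against 2-fold itself gave 737 (602 higher, 135 lower) in shNR4A3, 554 (454, 100) in shNT and 628 (531, 97) in shNR4A2 cells. A limit of 1.4-fold gave 3212 (1493, 1719), 2578 (1130, 1448) and 2694 (1246, 1448), and no fold limit 4312 (2007, 2305), 3909 (1820, 2089) and 3050 (1455, 1595), so that without the 2-fold limit more genes were lower than higher in each line. The interaction with shNT cells, with 0 genes called, gave 10 under DESeq2, 138 with no filter, 22 with the replicate block (the numbers did not pair these libraries by the limit of 0.1, the lowest correlation being 0.0266) and 0 to 44 with 1 library left out. The 44 were called without shNR4A3 LPS replicate 2, the LPS library of that line with the weakest response. LINC01268, TP53INP2, AL663070.1, LINC01547, KDM6B and CXCR4 were among the 10, the 22 and the 44. The interaction with shNR4A2 cells, also 0, gave 1 under DESeq2 and 29 with no filter, and the replicate block called none. The cause of these changes was not tested. NR4A1, NR4A2 and NR4A3 kept their calls under all alternatives run, and no gene named in the text reversed. BATF (main log2 fold change just past -1) missed 2-fold under 8 alternatives, at -0.998 to -0.831, and CEBPD (1.01) under 4, at 0.876 to 0.9997, both with the block among them. EPS8L3 lost its call under DESeq2 (adjusted p = 0.0965) and without LPS replicate 3 or control replicate 1, and TNFRSF1B, TNFSF10, IRF7, CD86, CXCR4 and AC083843.2 passed both limits without 1 or another library. At 9 counts over the controls for NR4A3, counting error limits its fold change.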
